A study of Caenorhabditis elegans with 12 samples.

Results

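The glutathione S-transferases were taken as all genes whose name starts with gst- or gsto- in the deposited gene tables, which gave 46 of 39665 genes in each table. The study set whole adult XX Caenorhabditis elegans of the wild-type strain N2, labelled as hermaphrodites, against adult XX animals homozygous for fog-2(q71), strain JK574, labelled as females. FOG-2 is needed for sperm production in the hermaphrodite germline, so mutant XX animals make oocytes and no sperm of their own. Every group was grown at 20 °C on OP50 bacteria, and RNA of each animal sample was reverse transcribed both from oligo-dT primers, which bind poly(A) tails, and from random hexamers. This gave 12 libraries in 4 groups of 3. The stated question was whether fog-2 activity affects polyadenylation. The files hold 1 FPKM value per genotype and priming (fragments scaled by the length of the gene model and by the total of mapped fragments), so neither the values of single libraries nor their spread can be shown, and read depth is unknown. The labels state neither the animals' age in days, nor the number of animals per sample, nor whether fog-2 animals had mated. They call the 3 samples per genotype biological replicates.

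Glutathione S-transferases join the thiol of the tripeptide glutathione to reactive compounds, which makes these more soluble and ready for export. They belong to the second phase of detoxification, after oxidation by cytochromes P450 and beside the UDP-glucuronosyltransferases, and before export by ABC transporters. In Caenorhabditis elegans many gst genes are switched on by the transcription factor SKN-1 under oxidative or xenobiotic stress, above all in the intestine, and gst-4 is the usual reporter of that response. The family includes a pi class (gst-1, gst-10), a zeta class that acts in tyrosine breakdown (gst-42, gst-43), an omega class (gsto-1, gsto-2, gsto-3) and a large group of nematode genes, many of which lie side by side on chromosome II.

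No member was called different between fog-2 and N2 with either priming. Calls were taken from the authors' deposited table (Cuffdiff, Benjamini-Hochberg q-value of at most 0.05). With oligo-dT, 45 of 46 members were tested and 0 were called, where 1.43% of all 16396 tested genes were called. With hexamers, 23 of 46 were tested and 0 were called, where 0.822% of all 9855 tested genes were called. At these background shares a family of this size would hold few calls, so the count of 0 does not set it apart. At an unadjusted p under 0.05 there were 2 members with oligo-dT (4.44% of those tested, against 8.45% of all tested genes) and 2 with hexamers (8.70%, against 8.97%). Among members the q-value went no lower than 0.336 in the oligo-dT table and 0.261 in the hexamer table. As a check of the labels, fog-2 itself was called lower in the authors' deposited tables, from 64.2 to 14.4 FPKM with oligo-dT and from 34.9 to 7.08 FPKM with hexamers. In RNA of whole animals, fewer cells of a type and less RNA per cell cannot be told apart, which holds for every value here.

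The family was dominated by a pair of genes. The pi-class gene gst-1 (chromosome III, 9059279 to 9060008 in the files, whose genome build no source used here names) was at 709 FPKM in N2 and 771 FPKM in fog-2 with oligo-dT, and at 349 and 479 FPKM with hexamers. Next came gst-7 (chromosome II, 4882113 to 4883286), at 554 and 526 FPKM with oligo-dT and at 232 and 260 FPKM with hexamers. FPKM is scaled by length, so levels of different genes can be set roughly beside each other. The scaling does not correct for priming or for reads shared between similar genes. These 2 were the members at 100 FPKM or more in each of the 4 groups. Together they made up 68.7% of the summed FPKM of the family in N2 and 68.5% in fog-2 with oligo-dT, and 68.0% and 71.3% with hexamers. The summed level of the family was 1839 FPKM in N2 and 1892 FPKM in fog-2 with oligo-dT, and 853 and 1036 FPKM with hexamers.

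Below that pair the levels spread widely. With oligo-dT, 18 members were at 10 FPKM or more in N2 and 10 were under 1 FPKM, and the median of all 46 was 4.29 FPKM. In fog-2 the counts were 17 and 11, with a median of 3.55 FPKM. After gst-1 and gst-7 came gst-27, at 85.2 FPKM in N2 and 82.4 FPKM in fog-2, then gst-13, at 55.7 and 58.1 FPKM, and, after gst-36, gst-26, at 42.02 and 43.4 FPKM. Log2 folds of these 3 (fog-2 over N2) were -0.05, 0.06 and 0.05. The lowest was gst-18, at 0.242 FPKM in N2 and 0.0374 FPKM in fog-2, which was the 1 member not tested with oligo-dT. With hexamers gst-27 was at 37.8 and 43.4 FPKM, gst-13 at 22.9 and 24.05 FPKM and gst-26 at 16.9 and 17.1 FPKM, and gst-18 was listed at 0 in both genotypes.

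**Figure D1:**
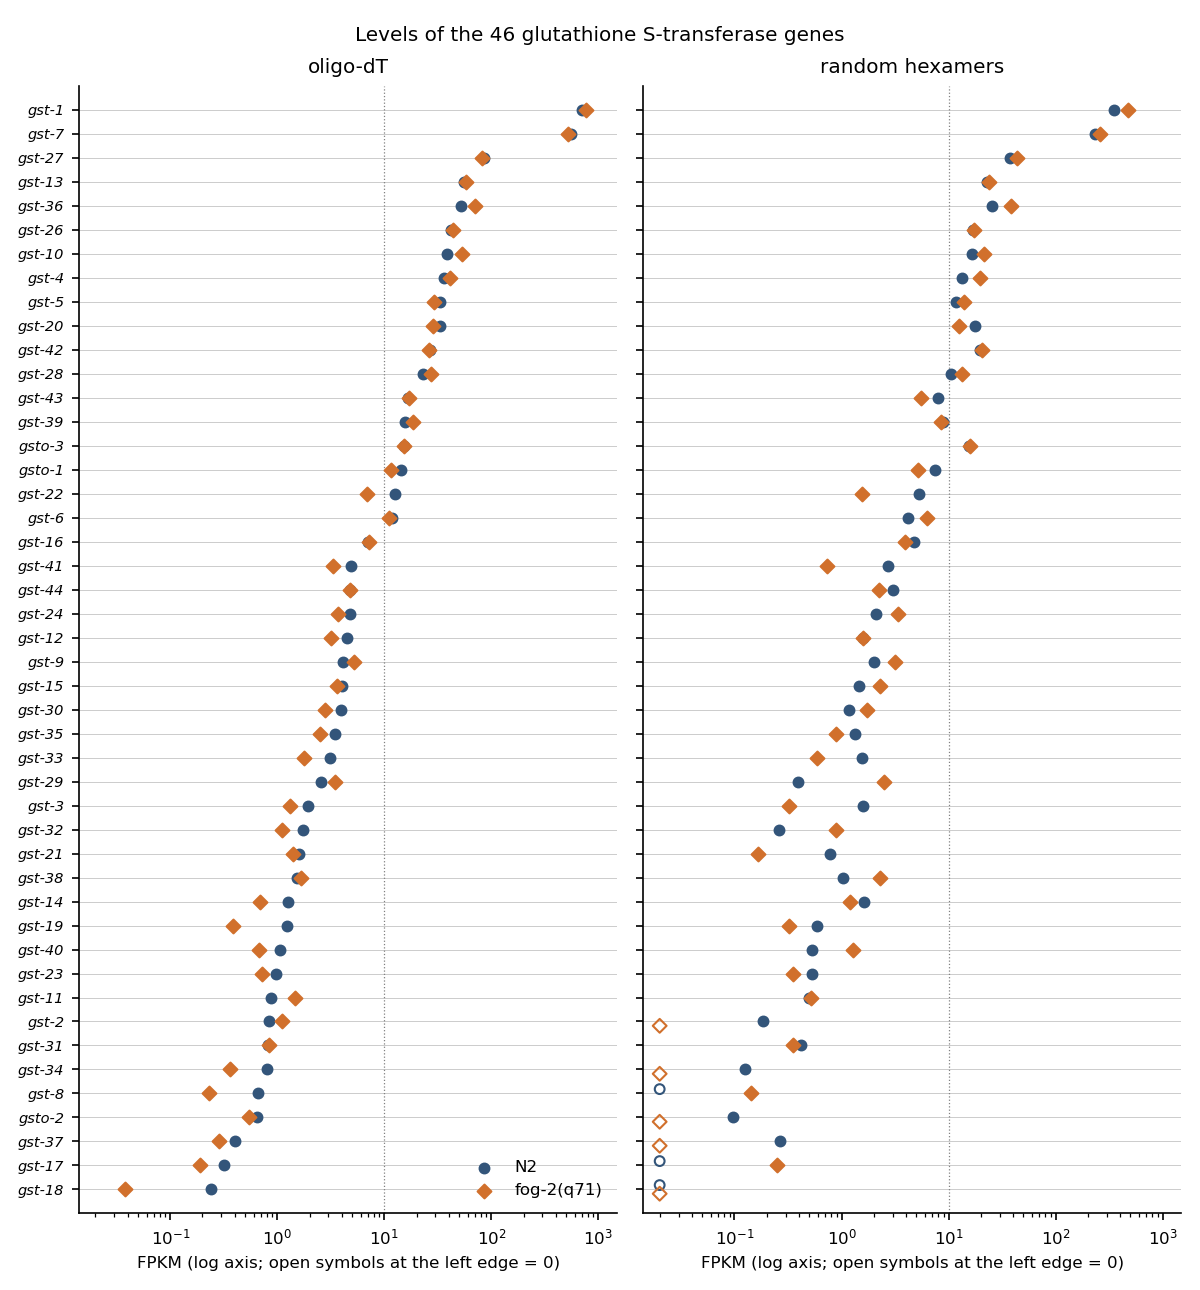
FPKM (log axis) of each of the 46 members in N2 (circles) and fog-2(q71) (diamonds), with oligo-dT on the left and hexamers on the right, ordered by the N2 level with oligo-dT; each point is the authors' value for a group of 3 libraries, open symbols at the left edge stand for 0, and the dotted line marks 10 FPKM. The symbols of both genotypes lie close together for the upper genes and further apart for genes near or under 1 FPKM.

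How closely each member's difference is known was read from the authors' p-values. An implied standard error was found by asking how large an error would give that p-value for that log2 fold under a normal curve, and the 95% interval was built from it around the log2 fold. For the 29 tested members with a locus of their own with oligo-dT, the median implied standard error was 0.35 on the log2 scale, against 0.25 for all such genes. The test score deposited beside the p-value gives a wider error for these members, with a median of 0.46. All 13 own-locus members with a mean of 10 FPKM or more had a p-implied interval inside a 2-fold change in either direction with oligo-dT, and with hexamers 8 of 10 did. With errors from the test score the counts were 12 of 13, gst-5 falling outside, and 6 of 10, gst-5 and gst-28 falling outside as well. By either error gst-36 and gst-4 lay outside with hexamers, with p-implied upper bounds of 1.04 and 1.13. Intervals below are p-implied.

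The most abundant enzymes had small differences. With oligo-dT the log2 fold of gst-1 was 0.12 (95% interval -0.15 to 0.39, q = 0.896, Cuffdiff). With hexamers it was 0.46 (0.13 to 0.79), the member with the lowest p of that table at 0.0063, and q = 0.261 did not pass. All tested genes together had a median of 0.10 with hexamers, and centred on that value gst-1 was at 0.36. For gst-7 the log2 fold was -0.07 (-0.35 to 0.20) with oligo-dT and 0.16 (-0.16 to 0.48) with hexamers. The zeta-class gene gst-42 (chromosome X, 11726426 to 11727729), the maleylacetoacetate isomerase of tyrosine breakdown, was at 26.5 and 26.4 FPKM with oligo-dT, a log2 fold of 0.00 (-0.37 to 0.37). With hexamers it was at 19.7 and 20.4 FPKM, a log2 fold of 0.04 (-0.48 to 0.57), so its values nearly coincided in both tables.

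The gene gst-36 (chromosome X, 9861706 to 9862897) was the one member with an unadjusted p under 0.05 in both tables. With oligo-dT it was at 52.6 FPKM in N2 and 71.1 FPKM in fog-2, a 1.35-fold difference with a log2 fold of 0.44 (0.09 to 0.78). That interval would include 0 with the error from the deposited test score of 1.95. The unadjusted p was 0.0136 and the q-value was 0.336, which did not pass. With hexamers it was at 25.5 and 38.1 FPKM, a log2 fold of 0.58 (0.11 to 1.04). This interval would still leave out 0 with the error from the hexamer test score of 2.02. The authors' p was 0.0146 and their q-value 0.381, which did not pass. Centred on the median of all genes the folds were 0.46 and 0.48. The cDNA of both primings came from the same animals' RNA, so the hexamer value is no independent repeat of the oligo-dT value.

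The reporter gene gst-4 (chromosome IV, 10142217 to 10142985), which encodes a sigma-type enzyme, was at 36.4 FPKM in N2 and 40.95 FPKM in fog-2 with oligo-dT. Its log2 fold was 0.17 (-0.20 to 0.54, q = 0.894). With hexamers it was at 13.3 and 19.5 FPKM, a log2 fold of 0.56 (-0.02 to 1.13) with q = 0.585. Neither difference passed the test, and the hexamer interval reached from no change to beyond 2-fold. Enzymes known to conjugate 4-hydroxynonenal, a product of lipid peroxidation, include those of gst-5, gst-6, gst-8, gst-10 and gst-24. Of these gst-5, at 33.3 and 29.1 FPKM with oligo-dT and 11.7 and 13.9 FPKM with hexamers, had log2 folds of -0.19 (-0.66 to 0.27) and 0.25 (-0.45 to 0.94) respectively. For gst-6, at 11.8 and 11.1 FPKM with oligo-dT and 4.20 and 6.30 FPKM with hexamers, they were -0.09 (-0.57 to 0.39) and 0.58 (-0.28 to 1.45). All 4 intervals included 0. The least abundant, gst-8, was at 0.660 and 0.232 FPKM with oligo-dT, a log2 fold of -1.51 (-3.06 to 0.04), and with hexamers the listed values were 0 for N2 and 0.144 FPKM for fog-2.

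Among the omega class, whose enzymes reduce disulfides and dehydroascorbate, gsto-1 (chromosome III, 7945529 to 7946953) was at 14.3 FPKM in N2 and 11.5 FPKM in fog-2 with oligo-dT. Its log2 fold was -0.31 (-0.76 to 0.14), and with hexamers, at 7.50 and 5.15 FPKM, it was -0.54 (-1.28 to 0.19). The q-values were 0.804 and 0.757, so neither passed. Levels of gsto-3 were 15.3 and 15.1 FPKM with oligo-dT and 15.6 and 15.9 FPKM with hexamers. By contrast gsto-2 was scarce, at 0.646 and 0.548 FPKM with oligo-dT, and was listed at 0 in fog-2 and at 0.0963 FPKM in N2 with hexamers.

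**Figure D2:**
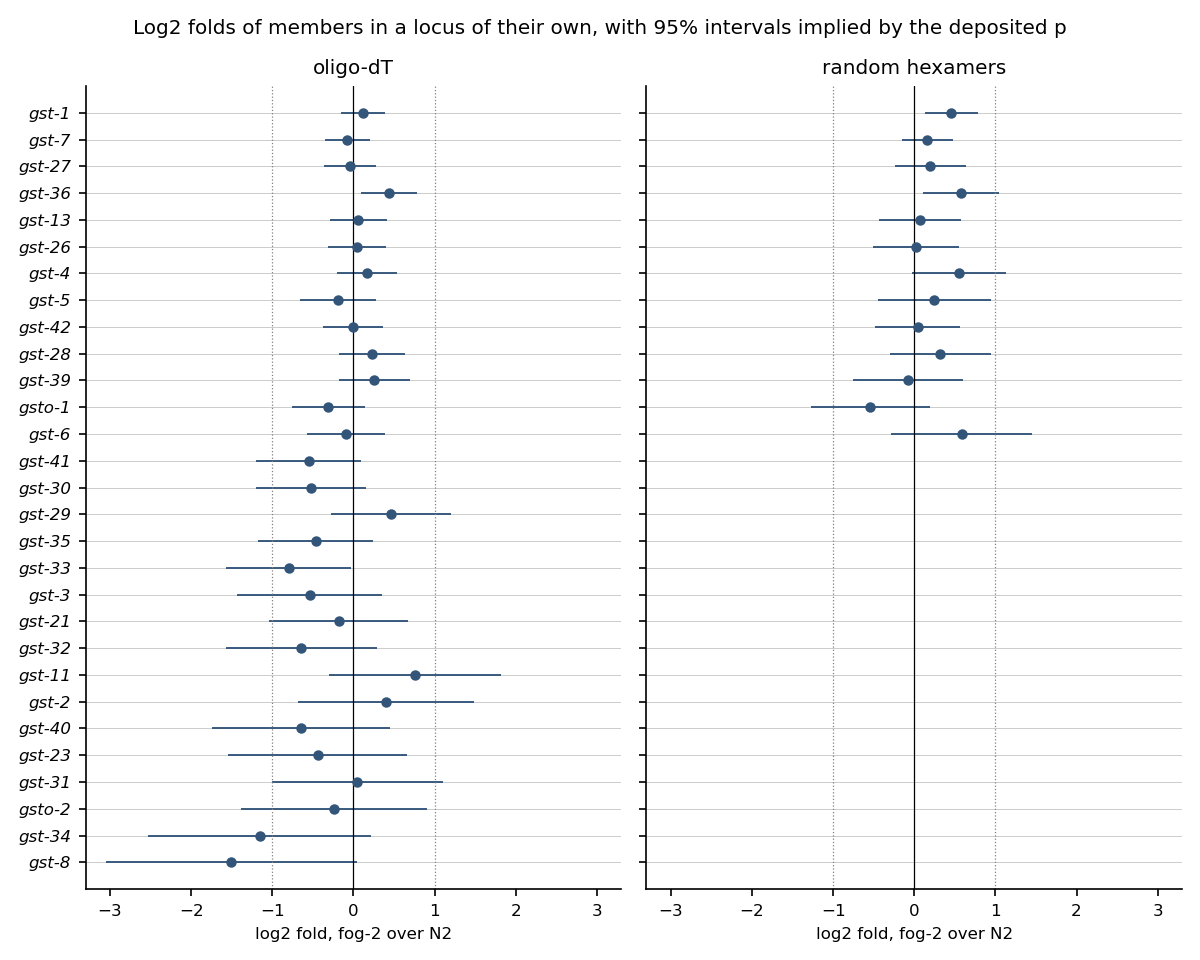
Log2 fold of fog-2 over N2 (points) with 95% intervals implied by the authors' p-values (lines) for members that do not share a locus, ordered by level, with oligo-dT on the left and hexamers on the right; dotted lines mark a 2-fold change. Intervals widen from the abundant genes at the top to the scarce genes at the bottom, gst-36 lies above 0 in both panels, and rows with no point in the right panel were not tested with hexamers.

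Low-level members had larger and less certain log2 folds. Over the 17 tested members with a mean of 10 FPKM or more with oligo-dT, a limit chosen after the values were seen, log2 folds ran from -0.31 to 0.47 with a median of 0.05, against 0.07 for all tested genes at that level. Over the 28 members under 10 FPKM the median was -0.48, against -0.25 for all tested genes under it, and 20 of 28 (71.4%) were below 0, against 69.1% of all tested genes at that level. Scarce genes as a whole thus had a median below 0 in this table, as the scarce members did. Over all 45 tested members the median was -0.16, against -0.03 for all tested genes, with 28 below 0 (62.2%, against 53.9% of all), or 26 when folds were centred on the median of all genes. This median was -0.06 with a minimum of 1 FPKM and -0.09 without members in shared loci or with 1 FPKM added.

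The members with the lowest folds were scarce. A 2-fold difference or more was reached by 3 members with oligo-dT (6.67%, against 13.6% of all tested genes). These were gst-19, at 1.24 and 0.384 FPKM, gst-8, given above, and gst-34, at 0.796 and 0.358 FPKM with q = 0.722. With hexamers gst-19 was at 0.596 and 0.322 FPKM and was not tested. The lowest p among members lower in fog-2 was 0.0416, for gst-33 (chromosome V, 3467529 to 3468486), at 3.11 and 1.79 FPKM, a log2 fold of -0.80 (-1.57 to -0.03) with q = 0.547. With hexamers gst-33 was at 1.55 and 0.584 FPKM and was not tested. Folds of like size were those of gst-14 (1.27 and 0.692 FPKM, -0.87), gst-22 (12.5 and 6.91 FPKM, -0.85) and gst-40 (1.06 and 0.674 FPKM, -0.65). With hexamers gst-40, not tested, was higher in fog-2, at 0.528 and 1.27 FPKM, and gst-14, also not tested, was at 1.61 and 1.19 FPKM. In the other direction gst-11 was at 0.865 and 1.46 FPKM, a log2 fold of 0.76 (-0.30 to 1.82), gst-29 was at 2.54 and 3.49 FPKM, 0.46 (-0.28 to 1.203), and gst-2 at 0.841 and 1.11 FPKM, 0.40 (-0.68 to 1.49). With hexamers these 3 were not tested. There gst-11 was at 0.501 and 0.515 FPKM, gst-29 at 0.392 and 2.50 FPKM, and gst-2 at 0.186 and 0 FPKM. Of the p-implied intervals given for these low members, that of gst-33 alone left out 0. With the error from its deposited test score of -1.58, the interval of gst-33 would include 0 as well.

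**Figure D3:**
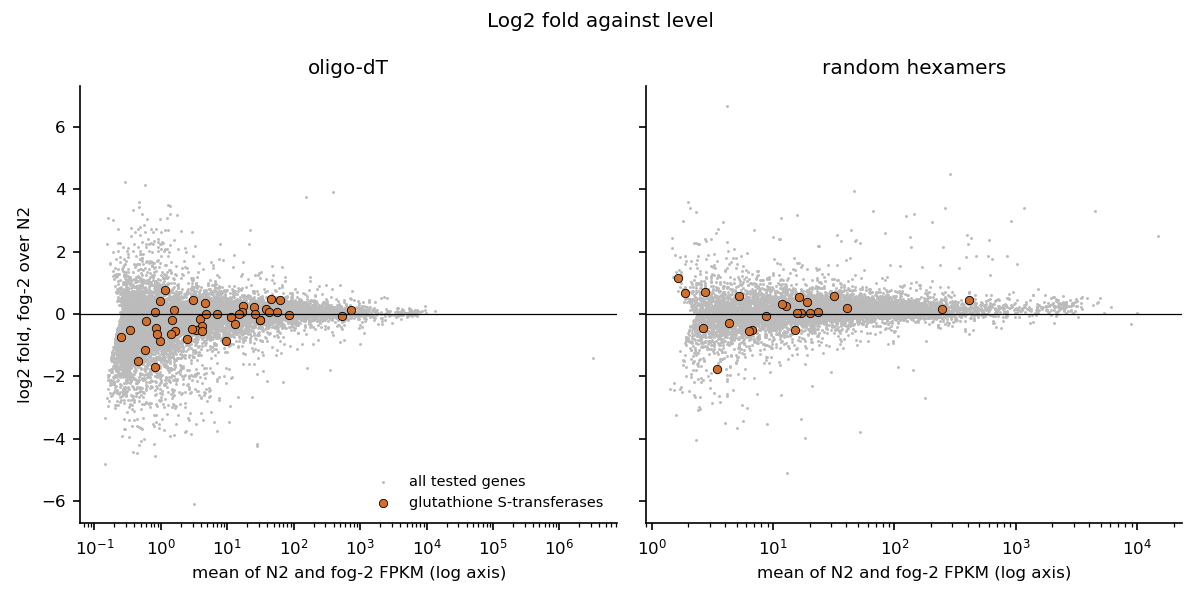
Log2 fold of fog-2 over N2 against the mean of both FPKM values (log axis) for all tested genes (grey) and tested members (orange) with oligo-dT (left) and hexamers (right); genes at 0 in 1 genotype are not drawn. The orange points lie within the grey cloud, and with oligo-dT the cloud and the members spread downwards under about 10 FPKM.

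With hexamers 23 members were tested. The 13 of them with a locus of their own had means of 5.25 FPKM or more, while members in merged loci were tested down to gst-38, at a mean of 1.66 FPKM. The 23 not tested reached at most 3.17 FPKM in either genotype. Of those, 14 were lower in fog-2, 8 were higher and gst-18 was at 0 in both. Over the 23 tested, the median log2 fold was 0.16, against 0.10 for all tested genes. Of them 16 were above 0 (69.6%, against 67.1% of all). Centred on the median of all genes, 12 were above 0 and the members' median was 0.06. A 2-fold difference was reached by gst-38 (1.02 and 2.29 FPKM, log2 fold 1.16) and by gst-22 (5.34 and 1.56 FPKM, log2 fold -1.77), which is 8.70% of those tested against 5.63% of all tested genes. Both lie in one shared locus, and their q-value of 0.999 did not pass. A value of 0 in fog-2 alone was listed for gst-2, gst-34, gst-37 and gsto-2, and in N2 alone for gst-8 and gst-17. In the other genotype gst-2 was at 0.186 FPKM, gst-34 at 0.126 FPKM, gst-37 at 0.267 FPKM and gst-17 at 0.252 FPKM. With oligo-dT gst-37 was at 0.403 and 0.285 FPKM and gst-17 at 0.320 and 0.190 FPKM, and neither passed. The oligo-dT values of gst-38 were 1.52 and 1.66 FPKM.

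Many members sit in loci that the authors' tables merge with other genes, and in the large ones the deposited p-value and test score part widely. Of the 45 tested with oligo-dT, 16 shared a locus (35.6%, against 31.8% of all tested genes), and with hexamers 10 of 23. A run of 9 members, gst-12, gst-14 to gst-20 and gst-24, was placed in a single locus of 79 gene models (chromosome II, 13507760 to 13903274). The pi-class gene gst-10 and gst-37 shared a locus of 263 gene models, and gst-22, gst-38 and gst-44 one of 276. The zeta-class gene gst-43 shared one with 103 models and gsto-3 one with 76. The median implied standard error of such members was 1.4003 with oligo-dT and 1.498 with hexamers, against 0.35 and 0.27 for members with a locus of their own. The test score gave far larger errors still, with medians of 6.97 and 11.03, so no interval is given for these genes, gst-9 apart. That gene, in a locus of 2 gene models, had errors of 0.39 from the p-value and 0.54 from the test score with oligo-dT. It was at 4.09 and 5.24 FPKM with oligo-dT, a log2 fold of 0.36 (-0.41 to 1.13, q = 0.887, Cuffdiff). With hexamers gst-9 was at 2.02 and 3.17 FPKM and was not tested.

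Among the members in large shared loci gst-10 was at 38.4 FPKM in N2 and 53.0 FPKM in fog-2 with oligo-dT. This 1.38-fold difference was much like that of gst-36, yet the authors' p for gst-10 was 0.803 where that of gst-36 was 0.0136. With hexamers gst-10 was at 16.5 and 21.7 FPKM, and the p was 0.901. The other shared-locus members with a mean of 10 FPKM or more with oligo-dT were gsto-3, given above, gst-20, at 32.9 and 28.6 FPKM with oligo-dT and 17.7 and 12.6 FPKM with hexamers, and gst-43, at 16.5 and 17.0 FPKM and at 7.90 and 5.51 FPKM. Also in shared loci, gst-24 was at 4.75 and 3.67 FPKM with oligo-dT and at 2.08 and 3.41 FPKM with hexamers, gst-15 at 4.04 and 3.61 FPKM and at 1.45 and 2.30 FPKM, and gst-44 at 4.76 and 4.77 FPKM and at 3.05 and 2.23 FPKM. The lowest q-value of these 7 genes in either table was 0.998.

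Neighbours along the chromosome could stand at very different levels, by far more than any tested member differed between genotypes. Runs were defined as at least 3 members with gaps of at most 20 kb in the WBcel235 annotation, in which all 46 names were found. It was used for names, strand, order, spacing and the coding genes between members. Of the 46, 25 lie on chromosome II, and 22 of those fall into 3 runs. In the run gst-6, gst-7, gst-8, gst-9, the adjacent gst-7 and gst-8 were at 554 and 0.660 FPKM in N2 with oligo-dT, an 839-fold difference in level. In the run from gst-26 to gst-35, all 9 on one strand, levels in N2 ran from 85.2 FPKM for gst-27 to 0.796 FPKM for gst-34. The first 3 genes of this run and gst-39 held the high values. Its summed level was 175 FPKM in N2 and 180 FPKM in fog-2 with oligo-dT, and 76.8 and 86.9 FPKM with hexamers.

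The run in the merged locus, also of 9 members on one strand with no other coding gene between them, ran from gst-20 at one end, at 32.9 FPKM in N2 with oligo-dT, to gst-18 at the other, at 0.242 FPKM. Of its 8 members tested with oligo-dT, 7 had log2 folds below 0 with a median of -0.43 and none passed. On chromosome IV, gst-4 at 36.4 FPKM stood beside gst-2 and gst-3, at 0.841 and 1.92 FPKM in N2 with oligo-dT. Sequence similarity between neighbours was not measured here, and reads from similar copies could be shared between them.

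**Figure D4:**
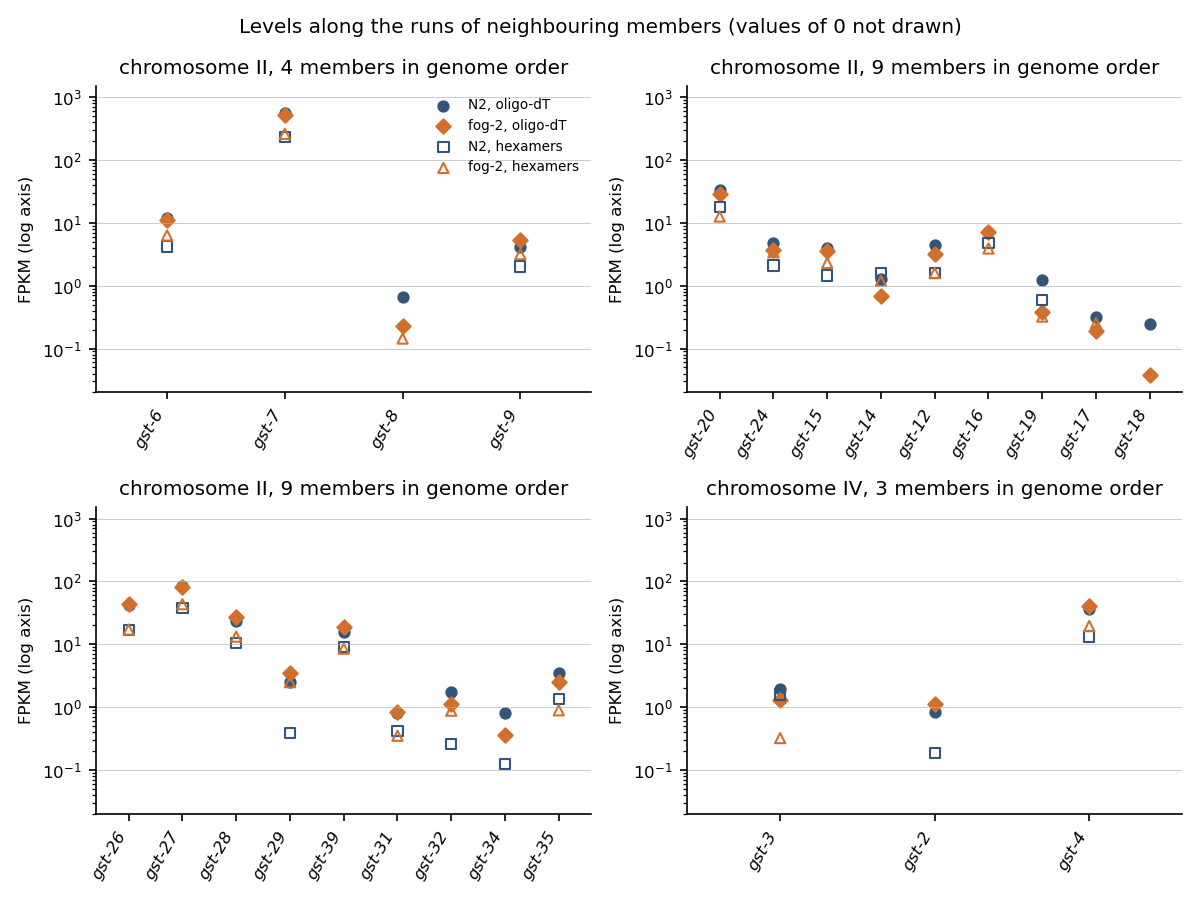
FPKM (log axis) of neighbouring members in genome order for 3 runs on chromosome II and 1 on chromosome IV; filled symbols are oligo-dT, open symbols hexamers, blue N2 and orange fog-2, each the authors' value for a group of 3 libraries. Each run holds both abundant and scarce genes, such as gst-7 at 554 FPKM beside gst-8 at 0.660 FPKM in N2 with oligo-dT. Values of 0 are not drawn.

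Levels with both primings could be set side by side for the 23 members tested with each. The tables were normalised separately, so ratios between them are descriptions without a test. The median log2 ratio of oligo-dT over hexamer FPKM was 1.13 for members in N2, against 0.59 for 8643 genes tested with both primings. In fog-2 it was 1.04, against 0.55 for 8616 genes. In each genotype 19 of 23 members lay above the median of all genes. In N2 the highest ratios were those of gst-5 (1.51), gst-6 (1.49), gst-15 (1.48) and gst-4 (1.46), above the 90th percentile of all genes at 1.26. The lowest was that of gsto-3 (-0.03), and gst-42 followed at 0.42. In fog-2 the highest ratios were those of gst-22 (2.14) and gst-43 (1.63) and the lowest those of gst-38 (-0.46) and gsto-3 (-0.07). All 4 lie in merged loci. The most abundant member, gst-1, had 1.02 in N2 and 0.69 in fog-2.

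Of the other detoxification families, the cytochromes P450 held no call, and the UDP-glucuronosyltransferases held calls at a share above that of all tested genes. The cytochromes P450 include enzymes of the first oxidation step. Of 76, 68 were tested with oligo-dT and 29 with hexamers, with 0 calls in each table. Of all tested genes 1.43% and 0.822% were called. At an unadjusted p under 0.05 there were 6 higher and 2 lower with oligo-dT, where 2.2% of all tested genes were higher and 6.25% lower. With hexamers there were 1 higher and 3 lower, where 6.37% of all were higher and 2.6% lower. The most abundant were cyp-31A5, at 130 and 136 FPKM with oligo-dT, cyp-31A2, at 96.7 and 109 FPKM, and cyp-31A3, at 85.1 and 85.3 FPKM. These genes were listed by name alone, and whether they act in detoxification was not examined. The UDP-glucuronosyltransferases are a family named for the transfer of glucuronic acid. Of 57 tested with oligo-dT, 2 were called higher and 2 lower by the authors' q, against 0.335% and 1.1% of all tested genes. In both directions together this is 7.02%, against 1.43% of all. The higher were ugt-22, from 78.3 to 113 FPKM in a locus of 16 gene models, and ugt-9, from 1.90 to 4.20 FPKM. The lower were ugt-18, from 3.23 to 0.566 FPKM, and ugt-44, from 34.0 to 19.6 FPKM. With hexamers 1 of 34 was called lower, ugt-44 from 21.4 to 11.7 FPKM, against 0.284% of all tested genes. At an unadjusted p under 0.05, 7 of this family were higher and 5 lower with oligo-dT, and 2 higher and 2 lower with hexamers. The shares of all tested genes are those given with the cytochromes P450. Of 21 ABC exporters of the pgp and mrp families tested with oligo-dT, pgp-6 was called lower, from 0.588 to 0.217 FPKM, which is 4.76% of those tested against 1.1% of all. With hexamers 0 of 15 were called, also at an unadjusted p under 0.05, where 0.822% of all tested genes were called and 8.97% had such a p. Whether the glutathione S-transferases differed from these families was not tested.

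Enzymes that supply and recycle glutathione had no call among those picked for their role, and the wider redox list had one. The list of glutathione and thiol redox genes had 24 of 32 names in the tables. The names not found were those of the glutathione peroxidases, gpx-1 to gpx-8. Values of that family under any other name are not in the counts and medians given here. The list held 1 call with each priming. This was the methionine sulfoxide reductase gene msra-1, from 341 to 641 FPKM with oligo-dT and from 167 to 307 FPKM with hexamers. One call higher in 23 tested with oligo-dT and 1 in 21 with hexamers stand beside 0.335% and 0.538% of all tested genes. The list's medians were 0.13 and 0.25, against -0.03 and 0.10 for all tested genes, and 20 of 23 and 17 of 21 of its genes were above 0. Its most abundant gene, the peroxiredoxin gene prdx-2, was at 1720 and 1883 FPKM with oligo-dT and did not pass (q = 0.879). With oligo-dT gcs-1, which makes the first and limiting step of glutathione synthesis, was at 50.0 and 51.4 FPKM. The glutathione synthetase gene gss-1 was at 74.3 and 77.8 FPKM, and the glutathione reductase gene gsr-1 at 268 and 289 FPKM. None of these 3 passed. Superoxide dismutases and catalases held 0 calls of 8 and of 6 tested, also at an unadjusted p under 0.05. Of all tested genes 1.43% and 0.822% were called, and 8.45% and 8.97% had an unadjusted p under 0.05.

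Regulators of gst genes were not called. Of 15 listed, 11 were tested with each priming, with 0 calls and 1 at an unadjusted p under 0.05. For skn-1, in a locus of 4 gene models, levels were 106 FPKM in N2 and 109 FPKM in fog-2 with oligo-dT and 192 and 193 FPKM with hexamers. Its repressor gene wdr-23 was at 67.5 and 72.6 FPKM, a log2 fold of 0.10, and daf-16, in a locus of 7 gene models, was at 70.1 and 67.0 FPKM with oligo-dT. The xenobiotic-response receptor gene nhr-8 was the regulator with p under 0.05 in both tables, at 15.3 and 10.98 FPKM with oligo-dT (log2 fold -0.48, q = 0.288) and at 11.04 and 7.42 FPKM with hexamers (q = 0.415).

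**Figure D5:**
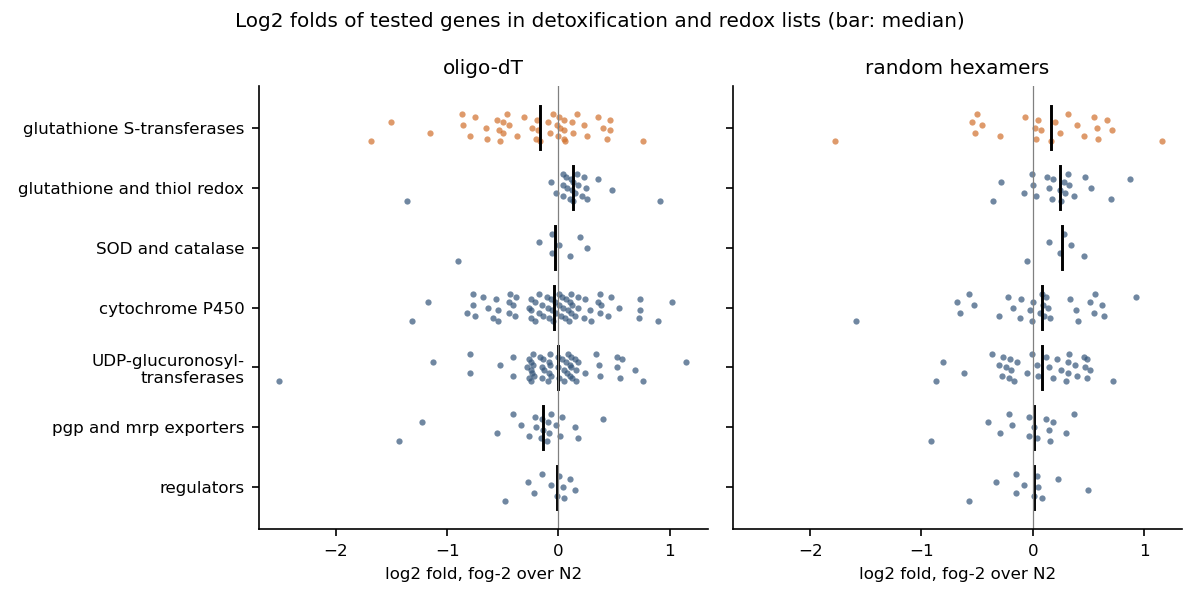
Log2 folds of fog-2 over N2 for the tested genes of 7 lists, with oligo-dT on the left and hexamers on the right; each point is a gene, the black bar is the list's median, and vertical jitter carries no value. The glutathione S-transferases (orange) have medians of -0.16 and 0.16 and spread to both sides of 0 in each panel.

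Markers of tissues were read beside these values. Of all tested genes 1.43% were called with oligo-dT and 0.822% with hexamers. Not every listed gene is particular to its tissue. The intestine list includes ife-5, the epidermis list sdc-1 and the sperm list try-5, and the counts, sums and medians include them. Log2 folds with oligo-dT and hexamers were -0.01 and 0.86 for ife-5 and 0.11 and 0.06 for sdc-1. For try-5 the log2 fold was 0.34 with oligo-dT. Intestine markers, the tissue in which many gst genes act, had 15 of 16 names in the tables and 0 calls among 14 tested with oligo-dT and 15 with hexamers. Their summed level was 4861 FPKM in N2 and 4856 FPKM in fog-2 with oligo-dT, and 3119 and 3494 FPKM with hexamers. With oligo-dT vha-6 had no usable value. These sums are carried by a few genes that differed in direction, such as asp-1, at 2352 and 1897 FPKM with oligo-dT, and mtl-2, at 606 and 845 FPKM. At an unadjusted p under 0.05, 2 of 14 were higher (mtl-1 and mtl-2) and 1 lower (pho-1) with oligo-dT. Of all tested genes 2.2% were higher and 6.25% lower. With hexamers 1 of 15 was higher (act-5) and 1 lower (pho-1), where 6.37% of all were higher and 2.6% lower. The metallothionein gene mtl-1, named after its values were seen, had log2 folds of 1.21 and 1.33 with oligo-dT and hexamers. Epidermis markers summed to 1348 and 1285 FPKM with oligo-dT, a sum carried by col-19 at 1199 and 1149 FPKM. Of 12 tested, 10 had log2 folds below 0, against 53.9% of all tested genes and 69.1% of those under 10 FPKM. The median of the 12 was -0.35, against -0.03 for all tested genes. At an unadjusted p under 0.05, 5 were lower, against 6.25% of all. 1 was called lower (hch-1, from 3.37 to 1.74 FPKM), against 1.1% of all. With hexamers the epidermis markers summed to 890 and 950 FPKM, with 0 of 7 called, none at an unadjusted p under 0.05 and a median of -0.04. Zygotic embryo markers, at 82.9 and 89.2 FPKM with oligo-dT and 63.6 and 66.2 FPKM with hexamers, held 0 calls among 15 and 8 tested. With oligo-dT 1 of 15 was lower at an unadjusted p under 0.05 (pha-4), against 6.25% of all tested genes, and none was higher. With hexamers 1 of 8 was higher (pes-10), against 6.37% of all, and none was lower. Sperm markers summed to 39.4 FPKM in N2 and 19.1 FPKM in fog-2 with oligo-dT. Of 12 tested, 0 were called and 5 were lower at an unadjusted p under 0.05, against 6.25% of all tested genes, and none was higher. With hexamers the sperm sums were 23.02 and 12.8 FPKM and none was tested; 4 of 18 were listed at 0 in N2 and 8 in fog-2. The part of these tissues in the values of single members was not tested.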

How the data were processed

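Libraries were made with the Illumina TotalScript kit from Trizol-extracted RNA, per the labels' protocols. Cufflinks 2.1.1, Cuffdiff and TopHat are listed in the submitters' processing notes; their order, settings and genome build are not stated. The authors deposited 1 FPKM value per genotype and priming. Beside it stand Cuffdiff's p-value, its q-value and a test score, per the file headers. Samples were grouped by title, since labels name strain N3 for 1 N2 animal sample and oligo-dT for 1 hexamer library. The design speaks of mRNA and the labels of total RNA. Coordinates are printed as in the files, and the WBcel235 annotation served for names, strand, order, spacing and the coding genes between members.

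Log2 folds (fog-2 over N2) were recomputed from FPKM without a pseudocount. Calls are the authors' q-values at or under 0.05, adjusted over all tested genes; a recomputed Benjamini-Hochberg adjustment differed from them by at most 9.75e-05. No count test was run because values are FPKM. The formula for implied errors was tested on simulated data drawn from normal curves, which checks its arithmetic and not whether the authors' p-values follow that curve. Alternatives were an added 0.1 or 1 FPKM, a minimum of 1 FPKM, other q limits, centring and leaving out shared loci. Values were given in full for the 8 most abundant members, the 5 largest and lowest folds per priming at 1 FPKM or more in a group, members with p under 0.05, those at 0 in 1 genotype, and those of known role. The members and lists were chosen with earlier results of these data known. Python 3.11.15, pandas 2.3.3 and scipy 1.17.1 were used.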

Additional observations from a re-analysis of the deposited data

How the results depend on the processing

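The count of 0 called members held for both primings at a q limit of 0.01 or 0.1, with a minimum of 1 FPKM, for at least 2-fold calls and without shared loci, and became 2 with each priming at an unadjusted p under 0.05, a looser rule. The family's median log2 fold of -0.16 with oligo-dT ranged from -0.16 to -0.06 over the alternatives (-0.06 with a minimum of 1 FPKM, -0.09 with 1 FPKM added), and that of 0.16 with hexamers from 0.06 (centred) to 0.20 (without shared loci). Of 204 single-member values under an alternative, 6 changed sign, all under centring on the median of all tested genes: gst-42 to 0.026 and gsto-3 to 0.014 with oligo-dT, and gst-13 to -0.031, gst-26 to -0.080, gst-42 to -0.057 and gsto-3 to -0.076 with hexamers. No paired analysis was possible because the tables hold pooled values per group, and for the same reason no library could be left out in turn. Depth is unknown, so the limit for scarce members can be given only through the authors' p-values. Members in shared loci other than gst-9 have no usable interval.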
